A study of Drosophila melanogaster with 2 samples.

Results

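The 7 hairpins of the Drosophila melanogaster mir-2 and mir-13 genes (mir-2a-1, mir-2a-2, mir-2b-1, mir-2b-2, mir-13a, mir-13b-1 and mir-13b-2) were followed in 2 libraries of microRNA reads, 1 per genotype. The libraries came from whole larvae aged 48 h and kept at 25 °C, which were cdk9-G57S homozygotes in one case and wild type in the other. Cdk9 is the kinase of P-TEFb, which promotes elongation by RNA polymerase II, and the series title concerns recruitment of the Microprocessor to that elongating polymerase. The hairpins were chosen by their identifiers, MI0000117 to MI0000120 and MI0000133 to MI0000135. They account for 10 of the 101 products and 7 of the 83 hairpins in the deposited table, where a product is an RNA species from a hairpin, numbered by a suffix of 1 or 2. Of the 7 hairpins, 3 had 2 listed products (mir-2a-2, mir-2b-2 and mir-13b-2) and 4 had 1. The listed products summed to 2204104 reads in cdk9-G57S and 2135660 reads in wild type. No member had fewer than 4887 reads over both libraries, so counting error of the reads was small. With 1 library per genotype there was no replicate check and no test between genotypes. All intervals below are 95% intervals of counting error alone. They are exact for shares, percentages and ratios of shares, and normal approximations from the 4 counts where the ratio between products is compared across libraries. In addition, the table holds no messenger RNA with which the genotype could be checked.

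MicroRNAs are cut from primary transcripts by the Microprocessor (Drosha and Pasha) and then by Dicer, and one strand of the resulting duplex is loaded into an Argonaute protein. The mir-2 and mir-13 microRNAs share a seed, the bases near the 5′ end that pair with target messenger RNAs. In Drosophila this seed pairs with the K box, a short motif in 3′ untranslated regions, and the family is known for repressing the pro-apoptotic genes reaper, grim and sickle. Hairpins whose names differ only in the last digit (mir-2a-1 and mir-2a-2, for example) are separate genes that give the same mature microRNA.

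The genes lie at 4 places in the Ensembl annotation of assembly BDGP6, which is later than the dm3 build named in the submitters' processing notes, so no coordinates are given. The hairpins mir-2a-1, mir-2a-2 and mir-2b-2 lie on arm 2L in an intron of spi, which encodes the EGF receptor ligand Spitz, and are intronic in all 5 of its annotated transcripts. The hairpin mir-2b-1 is elsewhere on 2L, overlapping an exon of 1 of the 8 annotated transcripts of Btk, a gene for a Tec-family tyrosine kinase. On 3R, mir-13a and mir-13b-1 overlap exons of both annotated transcripts of lncRNA:CR45911, which RefSeq lists as the primary transcript of mir-13b-1, mir-13a and mir-2c. The hairpin mir-13b-2 is on X, in an intron of CCT2, a gene for a chaperonin subunit. Each hairpin is on the same strand as its host.

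Near-equal reads were found in 3 pairs of products, each from sister hairpins of the same microRNA. The products MI0000134_1 of mir-13b-1 and MI0000135_2 of mir-13b-2 had 40961 and 40964 reads in cdk9-G57S, and 67924 and 67925 in wild type. They differed by 3 reads in cdk9-G57S and by 1 in wild type. The mir-2a products MI0000117_1 and MI0000118_1 differed by 31 reads (0.126%) in cdk9-G57S and by 42 (0.794%) in wild type. The mir-2b products MI0000119_1 and MI0000120_1 were less alike, differing by 71 reads (0.806%) in cdk9-G57S and by 164 (5.002%) in wild type. Such pairs may be the same reads counted for each hairpin. If they are, a value of one of these 6 products is a value of the microRNA and not of one of its 2 genes, which the table does not settle. At least the reads by which a pair differs were not counted for both. The 6 are called matched products below. The other 4 products (MI0000118_2 of mir-2a-2, MI0000120_2 of mir-2b-2, MI0000133_1 of mir-13a and MI0000135_1 of mir-13b-2) had no listed partner within 10% and are called unmatched. Matched products carried suffix 1 except in mir-13b-2, where the matched product was suffix 2, so the suffix was not read as an arm of the hairpin.

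The family as a whole took a similar share of the listed reads in the 2 libraries while its make-up differed. The 10 products summed to 166536 reads in cdk9-G57S, 7.56% of the listed reads (7.52 to 7.59), and 175971 reads in wild type, 8.24% (8.20 to 8.28). The ratio of these shares was 0.917 (0.911 to 0.923). It depended on scaling, at 0.778 on the authors' deposited scale and 0.712 without the most abundant product in the totals. The 2 mir-13b matched products made up 49.2% of the member reads in cdk9-G57S and 77.2% in wild type. Each had a ratio of 0.584, so in the sum their lower share was partly offset by the other members. Without those 2 products the summed share was 2.04-fold higher in cdk9-G57S (2.02 to 2.07), a comparison chosen after the values were seen. This sum still counts both products of the mir-2a and mir-2b pairs, which may be the same reads counted for each hairpin. Because those products were higher in cdk9-G57S by more than the sum, the value would be lower with each pair counted once.

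**Figure D1:**
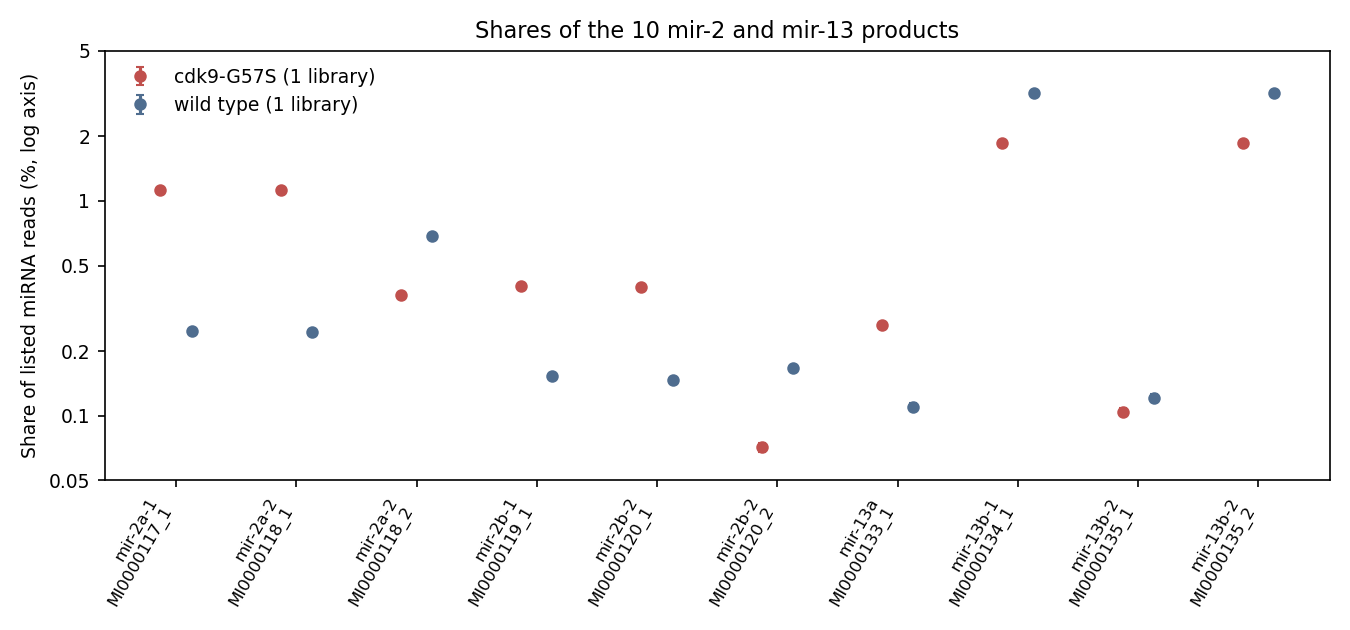
Share of all listed reads (percent, log axis) for each of the 10 products, in the 1 library of cdk9-G57S (left point of each pair) and the 1 library of wild type (right point). Bars are 95% exact counting intervals, mostly smaller than the points. The matched mir-2a and mir-2b products and mir-13a lie higher in cdk9-G57S, and the other products, among them the abundant mir-13b, lie lower.

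By the size rule used in place of a test (a share ratio reaching 2 upwards or 0.5 downwards, with a counting interval clear of 1), 5 of the 10 products were higher in cdk9-G57S, 1 was lower and 4 lay within 2-fold. Over all 101 listed products, 44.6% passed the rule, 27.7% higher and 16.8% lower. The members' log2 ratios had a median of 0.53, compared with 0.24 over all listed products. Matched products may count a microRNA for a second time, however. With 1 product kept of each set whose reads lay within 2% in both libraries, which merges the mir-2a and mir-13b pairs, 4 of 8 were higher and 1 was lower, and the median was 0.53. At a limit of 10%, which also merges the mir-2b pair and was applied to these counts after the data were seen, 3 of 7 were higher and 1 was lower, and the median was -0.21. The sign of the median thus turned on the mir-2b pair. The 88 other products left at 2% had a median of 0.19, with 23 higher and 16 lower, and the 75 left at 10% had a median of 0.25, with 21 higher and 12 lower.

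The matched mir-2a products showed the largest ratios of the family. MI0000117_1 of mir-2a-1 had 24679 reads in cdk9-G57S, which is 1.12% of the listed reads, and 5289 reads in wild type, which is 0.248%. Its share was 4.52-fold higher in cdk9-G57S (4.39 to 4.66). The matched MI0000118_1 of mir-2a-2 had 24648 reads in cdk9-G57S and 5247 in wild type, a ratio of 4.55 (4.42 to 4.69). By reads the matched mir-2a products ranked 21 and 22 among listed products in cdk9-G57S, and 46 and 47 in wild type. Their ratios stood 7th and 8th from the top of the 101. Summed with its unmatched product, which was lower in cdk9-G57S, mir-2a-2 had a ratio of 1.59 (1.56 to 1.62).

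The matched mir-2b products were also higher, by less. MI0000119_1 of mir-2b-1 had 8807 reads in cdk9-G57S and 3279 in wild type, a 2.60-fold higher share (2.50 to 2.71). MI0000120_1 of mir-2b-2 had 8736 reads in cdk9-G57S and 3115 in wild type, a ratio of 2.72 (2.61 to 2.83). The intervals of these ratios overlapped, which would also hold if the pair were the same reads counted for each hairpin. Both ratios lay below those of the matched mir-2a products in these 2 libraries. Summed with its unmatched product, mir-2b-2 had a ratio of 1.49 (1.45 to 1.54).

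The mir-13a product and the matched mir-13b products differed in opposite directions. MI0000133_1, the single listed product of mir-13a, had 5830 reads in cdk9-G57S and 2346 in wild type, a 2.41-fold higher share (2.29 to 2.53). It has no matched partner, so no other listed hairpin shows a near-equal count. A more abundant product could still include the same reads. Whether some mir-13a reads belong to another gene cannot be told, because how reads with several matching hairpins were counted is not given. The matched mir-13b products were the most abundant of the family in both libraries. MI0000134_1 held 1.86% of the cdk9-G57S reads and 3.18% of the wild-type reads, a ratio of 0.584 (0.577 to 0.592), and MI0000135_2 had the same ratio to 3 digits. They ranked 8 and 9 in cdk9-G57S, and 6 and 7 in wild type.

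Although mir-13a and mir-13b-1 are annotated in one primary transcript, their products did not keep one ratio. There were 7.03 reads of the matched mir-13b product for each read of mir-13a in cdk9-G57S, and 29.0 in wild type. The ratio of mir-13a to that product was thus 4.12-fold higher in cdk9-G57S (3.92 to 4.33), and scaling cancels from it. Because the mir-13b reads may come from the X-linked mir-13b-2 as well, this does not compare the output of the 2 hairpins on 3R alone.

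Among the unmatched products, both from the spi intron were lower in cdk9-G57S. MI0000118_2 of mir-2a-2 had 8039 reads in cdk9-G57S and 14686 in wild type, a 1.89-fold lower share (1.83 to 1.94) that lay just short of the 2-fold limit. MI0000120_2 of mir-2b-2 had 1569 reads in cdk9-G57S and 3576 in wild type, a 2.35-fold lower share (2.22 to 2.50). MI0000120_2 was the member that passed the rule in the lower direction. MI0000135_1, the unmatched product of mir-13b-2 in CCT2, had 2303 reads in cdk9-G57S and 2584 in wild type. Its ratio of 0.864 (0.816 to 0.914) was the closest to 1 in the family. Of the 4 unmatched products, 1 was thus higher by the rule, 1 was lower and 2 lay within 2-fold, which is near the 27.7% higher and 16.8% lower over all listed products.

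**Figure D2:**
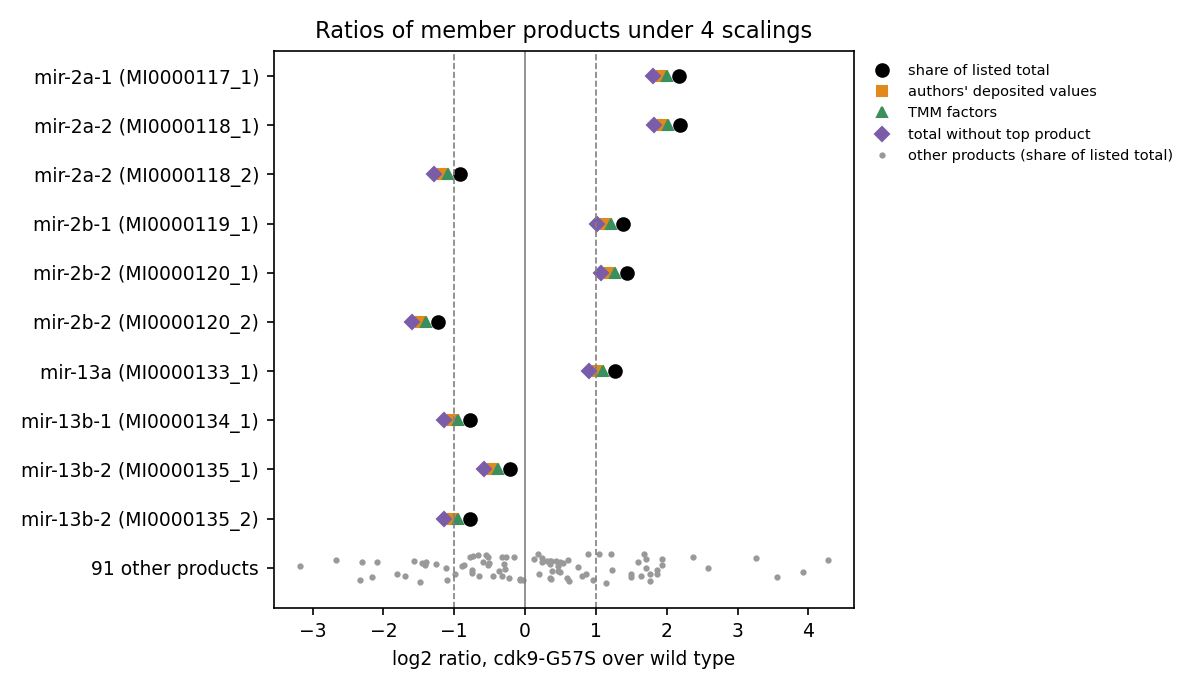
Log2 ratio of cdk9-G57S over wild type for each of the 10 products under 4 scalings of the libraries, with the 91 other products below for comparison (grey, shares of the listed total). Dashed lines mark 2-fold. Matched mir-2a lies near 2, matched mir-2b and mir-13a lie above 1 with shares of the listed total, and the remaining members lie below 0 under the 4 scalings.

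The scaling of the libraries decided which lower members passed 2-fold. On the authors' deposited scale every log2 ratio is 0.24 lower than with shares of the listed total. The matched mir-13b products then had ratios of 0.496 each, with 37135 and 37138 normalized reads in cdk9-G57S and 74913 and 74914 in wild type. Their counting intervals, 0.490 to 0.502 each, held the limit of 0.5. MI0000118_2 had a ratio of 0.450 on that scale. Thus 5 members were at least 2-fold higher and 4 at least 2-fold lower on the deposited scale, where 23.8% of all listed products were higher and 23.8% were lower. The 5 include both products of the mir-2a and mir-2b pairs, and the 4 include both of the mir-13b pair. Each pair may be the same reads counted for each hairpin. With the most abundant listed product removed from both totals, mir-13a had a ratio of 1.87, which left 4 of the 10 members higher and 4 lower, beside 23 higher and 29 lower of the 101 listed products.

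The 2 spi-intron hairpins with a second listed product showed a change in which product was more abundant. In mir-2a-2, the unmatched MI0000118_2 made up 24.6% of the hairpin's listed reads in cdk9-G57S (24.1 to 25.1) and 73.7% in wild type (73.1 to 74.3). The ratio of the unmatched to the matched product was 8.58-fold lower in cdk9-G57S (8.24 to 8.93). In mir-2b-2, the unmatched MI0000120_2 made up 15.2% of the listed reads in cdk9-G57S (14.5 to 15.9) and 53.4% in wild type (52.2 to 54.6), with a ratio 6.39-fold lower in cdk9-G57S (5.95 to 6.87). The hairpin mir-13b-2 went the other way by less, with the unmatched MI0000135_1 at 5.32% in cdk9-G57S (5.11 to 5.54) and 3.66% in wild type (3.53 to 3.81). These percentages do not depend on scaling. They do depend on the matched reads, part or all of which may belong to the sister gene. Of the reads listed for both mir-2b hairpins, MI0000120_2 was a minority in both libraries (1569 of 19112 in cdk9-G57S, 3576 of 9970 in wild type).

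**Figure D3:**
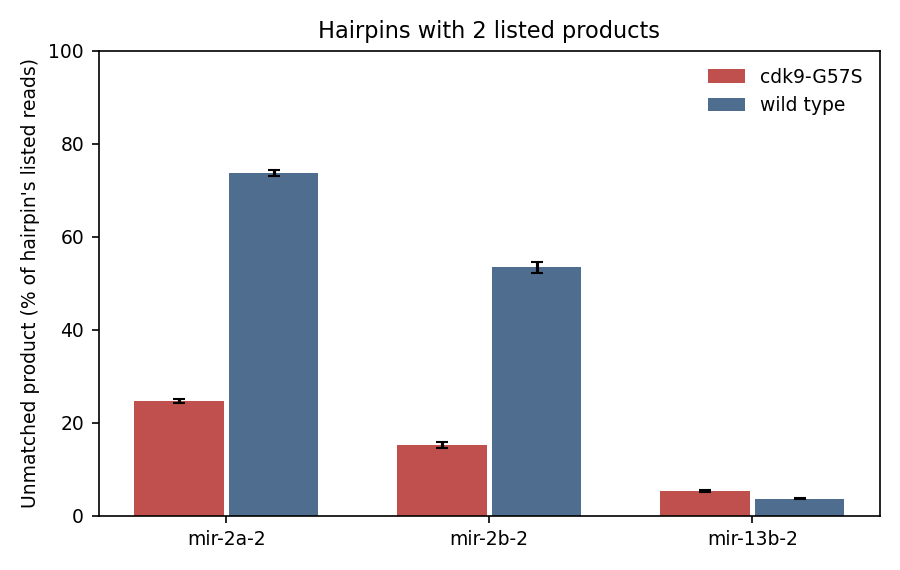
Unmatched product as a percentage of the listed reads of its hairpin, for the 3 hairpins with 2 listed products, in cdk9-G57S (left bar) and wild type (right bar), with 95% exact counting intervals. The unmatched product was the majority in wild type and the minority in cdk9-G57S for mir-2a-2 and mir-2b-2, and a small part in both libraries for mir-13b-2.

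The unmatched products of the spi intron differed in level but kept a similar ratio to each other in both libraries. The ratio of MI0000120_2 to MI0000118_2 was 0.195 in cdk9-G57S and 0.243 in wild type, which differ by 1.25-fold (1.17 to 1.33). The matched mir-2a and mir-2b products of the same hairpins, MI0000118_1 and MI0000120_1, stood at 2.82 to 1 in cdk9-G57S and 1.68 to 1 in wild type, a difference of 1.68-fold (1.59 to 1.76). Both differences exceeded counting error, and both were small beside the 8.58-fold separation within mir-2a-2. The matched mir-2b reads may belong in part or in full to mir-2b-1, which lies outside spi. The ratio of matched products therefore may not compare hairpins of the spi intron alone.

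Counting each matched pair once, the mir-13b pair made up 44.4% of the family's reads in cdk9-G57S (44.1 to 44.8) and 68.1% in wild type (67.8 to 68.4). The mir-2a pair took 26.8% in cdk9-G57S and 5.31% in wild type. The mir-2b pair took 9.55% in cdk9-G57S and 3.29% in wild type, and mir-13a took 6.32% in cdk9-G57S and 2.35% in wild type. Reads of the matched mir-13b product outnumbered those of the matched mir-2a product 1.66 to 1 in cdk9-G57S and 12.8 to 1 in wild type. That ratio leaves out the unmatched MI0000118_2 of mir-2a-2, which took 8.72% of the family's reads in cdk9-G57S and 14.7% in wild type. How efficiently each RNA is captured was not measured, so levels of different products in one library are read counts and not molecule counts, while the change of a ratio between libraries is free of a capture bias common to both.

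**Figure D4:**
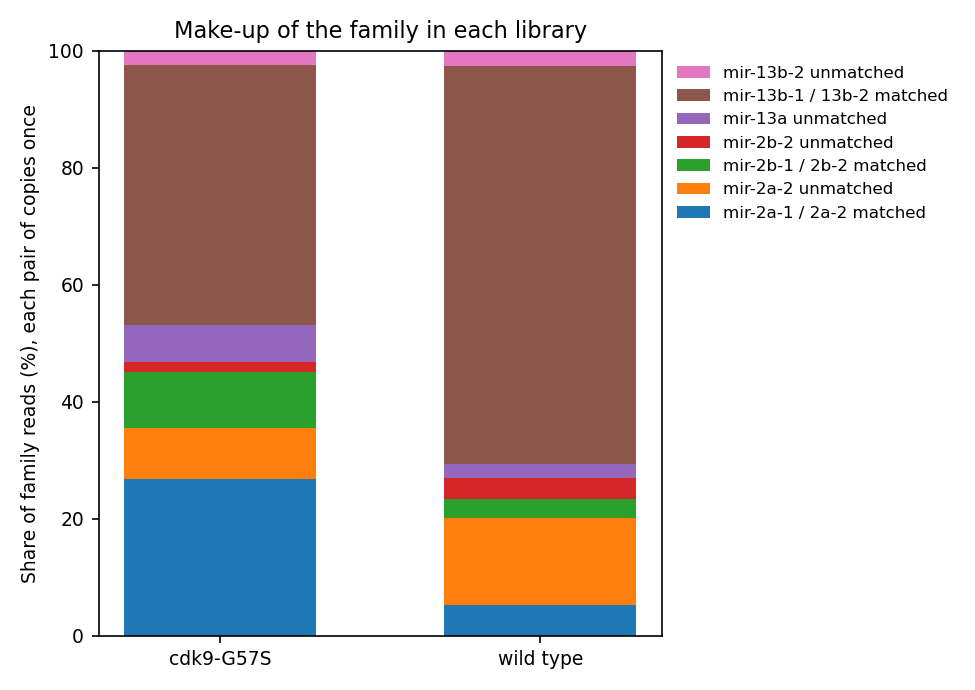
Share of the family's reads (percent) taken by each product in cdk9-G57S (left bar) and wild type (right bar), with each matched pair counted once, so that 7 products remain. The mir-13b pair takes 44.4% in cdk9-G57S, where the mir-2a pair takes 26.8%, and 68.1% in wild type.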

How the data were processed

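Total RNA from whole larvae was extracted with Trizol and sequenced by Illumina, per the labels' protocols. Per the submitters' processing notes, Bowtie and the build dm3 were used. How reads with several matching hairpins were counted is not given in the sources used here, nor are trimming and the microRNA annotation. In the deposited table are raw counts per product and, per the file headers, a DESeq2-normalized signal that the authors made. That signal equals the counts divided by 0.907 for wild type and 1.10 for cdk9-G57S. Footer lines were left out.

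Hairpin names are those the series' selection pairs with the identifiers. All 7 were found as symbols in the Ensembl BDGP6 and RefSeq annotations, which supplied arms, strands and host genes. Values for mir-2c, mir-6, mir-11 and mir-308, planned as others with the seed, were not analysed here because no table pairs those names with identifiers. All listed products of the 7 hairpins are named. The members and lists were chosen with earlier results of these data known.

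Counts were divided by the listed total of their library (2204104 in cdk9-G57S, 2135660 in wild type). Ratios of shares have exact conditional-binomial intervals and percentages have Clopper-Pearson intervals, both at 95%. The size rule required at least 20 reads summed. Intervals cover counting error only and treat reads as independent, which PCR copies are not, so they may be too narrow. The interval and call rules were tested on data simulated with counting error alone. That checks the calculation and does not cover variation between larvae or preparations. Alternatives were the deposited scale, edgeR TMM factors, other totals, fold limits and minimums, a pseudocount, and 1 product per set of products within 2% or 10% of each other in both libraries. Python 3.11.15, numpy 2.4.6, pandas 2.3.3, scipy 1.17.1, matplotlib 3.10.9, R 4.3.3 and edgeR 4.0.16 were used.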

Additional observations from a re-analysis of the deposited data

How the results depend on the processing

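The summed share of the family, 0.917 as a ratio of cdk9-G57S to wild type, was 0.778 on the authors' deposited scale, 0.816 with TMM factors, 0.712 after removing the most abundant product from the totals and 0.910 against non-member products. It was 0.955 with 1 product per set within 2% and 0.883 within 10%. Leaving out a hairpin gave 0.805 (mir-2a-1), 0.831 (mir-2a-2), 0.885 (mir-2b-1), 0.894 (mir-2b-2), 0.897 (mir-13a) and 1.13 (mir-13b-1 or mir-13b-2). Each 1.13 keeps 1 matched mir-13b product but both of the mir-2a and mir-2b pairs, while 0.883 keeps 1 per pair. Without either matched mir-13b product the ratio was 2.04, with those pairs in full.

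Of 65 member ratios recomputed under the scaling, thinning and pseudocount settings, none changed direction, 57 stayed on their side of the 2-fold limit, 7 passed it and 1 no longer did. That one was mir-13a, at 1.87 after the same removal. Each scaling or thinning setting shifts every log2 ratio by the same amount, from -0.365 to 0.005 across settings. The members started at 1.27 or more, or at -0.21 or less, so no direction could have changed. The pseudocount was small beside the reads of every member. Lower members numbered 4 on the deposited scale, 2 with TMM, 4 without the most abundant product, 4 at a limit of 1.5-fold and 0 at 4-fold, where 2 members were higher. With 1 product per set within 10%, 3 members were higher. The counts at 10% and the removal of both mir-13b products were chosen after the data were seen. Over all 101 listed products, 24 were higher and 24 lower on the deposited scale, 26 and 21 with TMM, 23 and 29 without the most abundant product, 36 and 30 at 1.5-fold, and 8 and 6 at 4-fold. At 10% they were 24 and 14 of 82. For mir-2b, the change in the unmatched product was -38.2 percentage points within mir-2b-2 and -27.7 with both mir-2b hairpins summed. Minimums of 0 and 100 reads removed no product. No paired analysis was possible with 1 library per genotype. Depth limits little here; variation between larvae and preparations was not measured.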
